A study of Mus musculus with 4 samples.

Results

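The constitutive 26S proteasome was examined through 31 genes that encode its standard subunits, listed by name: 7 Psma and 7 Psmb genes of the core, 6 Psmc genes of the ATPase ring and 11 Psmd genes of the non-ATPase base and lid. They stand among 21900 protein-coding mouse genes. A gene was counted as carrying a peak when the authors' annotation named it as nearest to a peak whose centre lay at most 5000 bp from its transcription start site (TSS), and a member with no such row was counted as without one. By that count 14 of the 31 genes (45.2%) carried a peak, each of them exactly 1.

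The peaks mark binding of XBP1s, the spliced, active form of a transcription factor of the unfolded protein response, found by chromatin immunoprecipitation and sequencing (ChIP-seq). The series holds 2 immunoprecipitations with an XBP1s antibody and 2 input libraries, the input being sheared chromatin kept before precipitation. All 4 libraries came from splenic natural killer (NK) cells, cytotoxic lymphocytes of the innate immune system, given IL-15 at 50 ng/ml for 1 h. The design text names the donor mice Il15TgXbp1f/f and the strain label reads C57BL/6; no Cre driver, age or number of animals is given for these libraries, and no library lacks Xbp1 or IL-15, so neither can be compared with its absence.

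The deposited values are 1 combined list of 4890 peaks on genome build mm10 with no column for any single library. No replicate error, depth or IP-to-input ratio exists for any peak, and the score column is 0 throughout. The width of a listed interval is the only size a peak has here. How the intervals were combined from the peak calls is unstated, so a width may be that of an overlap between calls, and it is not a measure of signal. A peak list does not measure RNA, so expression of cell type markers could not be checked. Peaks lay within 5000 bp of the TSS at 6 of 12 NK cell marker genes (Nkg7, Gzma, Gzmb, Prf1, Il2rb and Id2). Ncr1, Klrb1c, Klrk1, Eomes, Tbx21 and Itga2 had none. Peaks lay at 1 of 5 T cell markers (Cd3d) and at none of 5 B cell or 5 myeloid markers. The share over all protein-coding genes was 15.9%, and counts this small do not establish the cell type. Genes are not replicates, and every count below describes this list without a test.

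The proteasome is the protease that degrades ubiquitin-tagged proteins in the cytosol and nucleus. Its barrel-shaped core stacks rings of alpha subunits, which form the gate, on rings of beta subunits, some of which cut the substrate. A regulatory particle caps the barrel: its base holds an ATPase ring that unfolds the substrate and its lid removes the ubiquitin. The proteasome also destroys misfolded proteins that are exported from the endoplasmic reticulum (ER), and in lymphocytes it supplies peptides for antigen presentation.

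Set against all genes, peaks at proteasome subunits were common and narrow. Of the 31 members 45.2% had a peak, whereas the same count gave 15.9% over all 21900 protein-coding genes (3487 genes). The median peak at the 14 members was 315 bp wide (range 138 to 748), against 410 bp over the 3487 genes (interquartile range 281 to 625). Of the 14 peaks, 11 were narrower than that median and 5 narrower than the lower quartile. None reached 1000 bp, a width that 283 of the 3487 genes (8.12%) had. With only the widest 50% of all listed intervals counted, 4 of the 31 members (12.9%) had a peak, against 9.03% of all protein-coding genes.

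**Figure D1:**
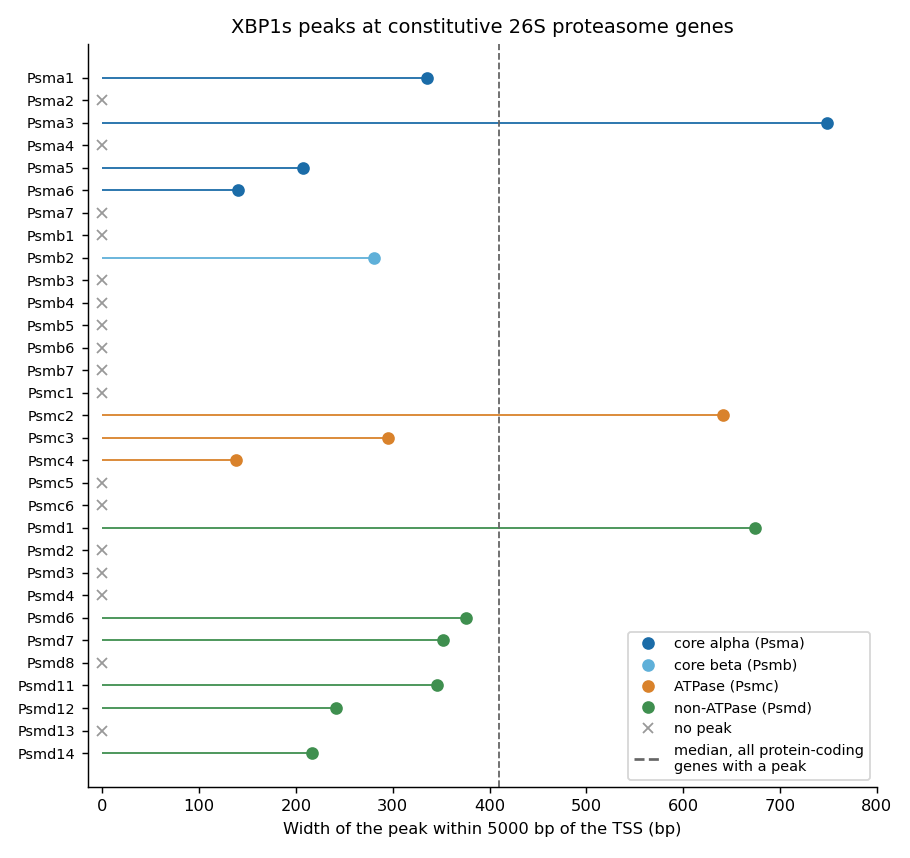
Width in bp of the XBP1s peak within 5000 bp of the TSS at each of the 31 constitutive proteasome genes, coloured by class; crosses mark the 17 genes with no peak, and the dashed line is the median of 410 bp over all 3487 protein-coding genes with a peak. Psma3, Psmd1 and Psmc2 alone lie to the right of that line.

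The classes differed in how many of their genes carried a peak. The alpha subunits had 4 of 7, the beta subunits 1 of 7, the ATPases 3 of 6 and the non-ATPase subunits 6 of 11. For the core as a whole this came to 5 of 14 genes (35.7%), against 50% of the ATPases and 54.5% of the non-ATPase subunits. With any peak within 1000 bp of either gene end counted instead, the core had 3 of 14 (21.4%), the ATPases 4 of 6 (66.7%) and the non-ATPase subunits again 6 of 11. Within the Psmd genes, peaks lay at 5 of 8 lid subunits and at 1 of 3 base subunits. The classes are small, and the differences between them were not tested.

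Promoter sequences are shown for the members on which the description turns. They come from RefSeq (GRCm38.p6, the assembly of mm10), which held 27 promoter windows for 25 of the 31 members; Psmb1, Psmb2, Psmb7, Psmc3, Psmd3 and Psmd7 had no entry. Each runs 5′ to 3′ along the gene's own strand, from 250 bases before the start to 30 bases after it. Capitals mark matches, on either strand, to any of these motifs: CCACG and ACGTG, the cores of XBP1 and ER stress sites; TGACGTG, the core of the unfolded protein response element; CCAAT, bound by NF-Y; TGACGT, a part of the site of CREB and ATF factors; TGACNNNGC, the antioxidant response element; CCGGAAG, an ETS site; and GCATGCGC, part of the site of nuclear respiratory factor. TGACGTG contains both ACGTG and TGACGT, and CCACG and ACGTG overlap in places. A match is a string of letters and not a measured site.

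The first 3 belong to the members with the widest peak among the alpha subunits, the ATPases and the non-ATPase subunits. They lie at chr12:70974373-70974652 (plus strand), chr5:21786497-21786776 (plus strand, the start at which the peak lies) and chr1:86064369-86064648 (plus strand).
Psma3: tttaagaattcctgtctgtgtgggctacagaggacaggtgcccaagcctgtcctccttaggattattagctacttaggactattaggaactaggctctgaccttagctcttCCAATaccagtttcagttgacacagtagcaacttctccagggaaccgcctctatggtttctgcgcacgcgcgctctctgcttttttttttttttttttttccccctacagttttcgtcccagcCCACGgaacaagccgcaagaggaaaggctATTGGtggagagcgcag
Psmc2: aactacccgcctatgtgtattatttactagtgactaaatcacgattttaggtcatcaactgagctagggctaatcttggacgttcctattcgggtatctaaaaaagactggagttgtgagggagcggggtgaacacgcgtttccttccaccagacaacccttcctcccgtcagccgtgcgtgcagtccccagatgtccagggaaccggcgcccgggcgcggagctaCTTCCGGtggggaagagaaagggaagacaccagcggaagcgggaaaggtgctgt
Psmd1: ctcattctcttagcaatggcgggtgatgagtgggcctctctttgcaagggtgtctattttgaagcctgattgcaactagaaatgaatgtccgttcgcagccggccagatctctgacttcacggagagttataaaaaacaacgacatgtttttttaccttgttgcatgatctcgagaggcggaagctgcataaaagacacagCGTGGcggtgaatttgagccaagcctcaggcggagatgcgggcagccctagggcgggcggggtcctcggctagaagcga

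The next is a member without a peak, the first in order to hold an XBP1 motif, at chr13:14612992-14613271 (plus strand).
Psma2: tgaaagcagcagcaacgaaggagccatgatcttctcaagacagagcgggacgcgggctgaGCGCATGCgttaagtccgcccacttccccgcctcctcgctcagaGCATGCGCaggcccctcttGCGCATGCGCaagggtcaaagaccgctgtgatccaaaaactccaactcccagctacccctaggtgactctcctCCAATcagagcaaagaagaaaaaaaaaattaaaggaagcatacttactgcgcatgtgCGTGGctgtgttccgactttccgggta

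The last 3 were chosen after their values had been seen: Psma1 (chr7:114276087-114276366, minus strand) for its unfolded protein response element, Psma6 (chr12:55398575-55398854, plus strand) for its ETS sites, and Psmc5 (chr11:106255935-106256214, plus strand) because a peak named for its neighbour covers it.
Psma1: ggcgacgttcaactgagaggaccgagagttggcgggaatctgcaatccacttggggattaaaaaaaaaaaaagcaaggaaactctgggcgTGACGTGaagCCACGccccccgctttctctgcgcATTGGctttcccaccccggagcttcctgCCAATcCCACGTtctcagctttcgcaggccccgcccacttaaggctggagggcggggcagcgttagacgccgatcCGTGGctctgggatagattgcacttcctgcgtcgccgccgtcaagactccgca
Psma6: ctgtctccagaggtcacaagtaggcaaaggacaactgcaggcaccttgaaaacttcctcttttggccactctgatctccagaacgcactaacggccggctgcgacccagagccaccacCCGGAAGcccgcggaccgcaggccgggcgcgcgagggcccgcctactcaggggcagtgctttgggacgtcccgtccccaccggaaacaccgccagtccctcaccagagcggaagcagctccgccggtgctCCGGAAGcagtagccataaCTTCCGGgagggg
Psmc5: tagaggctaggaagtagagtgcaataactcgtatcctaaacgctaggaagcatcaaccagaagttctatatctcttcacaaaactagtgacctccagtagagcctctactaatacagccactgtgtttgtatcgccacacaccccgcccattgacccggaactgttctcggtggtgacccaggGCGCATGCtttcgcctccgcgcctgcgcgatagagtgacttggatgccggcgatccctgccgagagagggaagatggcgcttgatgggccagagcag

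Among the alpha subunits, which shape the entry gate of the core, Psma3 had the widest peak of all members, 748 bp at chr12:70974588-70975335. It was annotated to intron 1 of 10 and labelled CpG, ran from 36 bp upstream to 711 bp downstream of the TSS, and ranked at the 83rd percentile of widths over genes with a peak. Psma1 had 335 bp (chr7:114275816-114276150, intron 1 of 9, also labelled CpG), reaching only 34 bp upstream. Psma5 had 207 bp in its promoter (chr3:108256809-108257015), centred 14 bp upstream of the TSS. Psma6 had 140 bp, from 73 bp upstream to 66 bp downstream, which takes in 2 of the 3 ETS matches shown above. No peak was assigned to Psma2, Psma4 or Psma7.

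The beta subunits had the lowest count, 1 of 7 (14.3%), which is near the 15.9% over all protein-coding genes. Only Psmb2, a structural subunit without a cutting site, had a peak, of 281 bp in its promoter (chr4:126677488-126677768) and centred 15 bp upstream of the TSS. None lay at Psmb5, Psmb6 or Psmb7, which carry the chymotrypsin-like, caspase-like and trypsin-like activities of the constitutive core. Psmb1 and Psmb4, further structural subunits, had none. Psmb3 was the nearest gene of a peak of 277 bp, but this lay 15830 bp downstream (chr11:97719126-97719402, annotated to an intron of another transcript) and fell outside the window. No member lay near the limit of 5000 bp: the farthest peak inside it was that of Psma3, at 338 bp.

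Of the 3 inducible counterparts of these catalytic subunits 2 had an assigned peak, against 15.9% over all protein-coding genes. The group is too small for a comparison. Immune cells can replace Psmb5 with Psmb8, Psmb6 with Psmb9 and Psmb7 with Psmb10 to form the immunoproteasome. Psmb8 had a peak of 1415 bp and Psmb10 of 1049 bp, both wider than any peak at the 31 constitutive genes. That of Psmb8 was annotated to the promoter. That of Psmb10 was annotated to exon 3 of 8 and centred 827 bp downstream of the TSS. Psmb9 had no assigned peak, although a peak of 767 bp named for Tap1 covered an end of the gene.

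The ATPases split evenly. Psmc2 had 641 bp (chr5:21786449-21787089, promoter), from 298 bp upstream to 342 bp downstream of the start, so all of the Psmc2 sequence shown above lay under it. A second peak of 501 bp (chr5:21784970-21785470), named for Dnajc2, covered the upstream start of Psmc2, where the genes lie head to head on opposite strands. The RefSeq genes begin there 11 bp apart, and the start that the authors' distance gives Dnajc2 lies 110 bp from that of Psmc2. Psmc3 had 295 bp (chr2:91054008-91054302) in exon 1 of 12, annotated as 5' untranslated region. Psmc4 had 138 bp in its promoter (chr7:28050037-28050174), the narrowest among the members. No peak was assigned to Psmc1, Psmc5 or Psmc6.

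Psmc5 was the exception among genes counted as without a peak. A peak of 733 bp at chr11:106255636-106256368, named for the rRNA processing gene Ftsj3, covered the whole promoter window of Psmc5; the start sites of the genes lie 101 bp apart on opposite strands. With any peak within 1000 bp of either gene end counted, whatever its name, Psmc5 joined and 4 of 6 ATPase genes had one. By this count the members with a peak numbered 13 of 31 (41.9%), against 17.5% of all protein-coding genes. Psma3 and Psma6 dropped out because their peaks lay at internal start sites, more than 1000 bp from the ends that RefSeq gives these genes.

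All 6 peaks at non-ATPase subunits were centred downstream of the start, as were 10 of the 14 over all members and 59.9% over all genes with a peak. Psmd1, a scaffold subunit of the base, had 674 bp (chr1:86064380-86065053, promoter), from 240 bp upstream to 433 bp downstream. The lid subunit Psmd6 had 376 bp (chr14:14120686-14121061, promoter) and Psmd7, partner of the lid's deubiquitinase, had 352 bp (chr8:107588181-107588532, exon 1 of 7, 5' untranslated region). Psmd11 had 346 bp in intron 1 of 13 and Psmd12 had 241 bp in exon 1 of 11. Psmd14, the deubiquitinase that strips ubiquitin chains from the substrate, had 217 bp in intron 1 of 11. No peak was assigned to the base subunit Psmd2, to the ubiquitin receptor Psmd4, nor to the lid subunits Psmd3, Psmd8 and Psmd13.

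The peaks lay tightly around the start sites. For the 14 members the authors' distance placed the TSS within 10 bp of a RefSeq start or gene end. All 14 centres lay within 500 bp of the TSS, as did 87.9% of those over all genes with a peak. The TSS itself fell inside 12 of the 14 peaks (85.7%), against 66.4% over all genes; the exceptions were Psmd11 and Psmd14, whose peaks began 82 and 89 bp downstream. The median centre was 106.5 bp downstream (range -15 to 338), against 47 bp over all genes (interquartile range -91 to 163). The 4 peaks centred upstream of the start were those of Psma5, Psma6, Psmb2 and Psmc4, all by 15 bp or less and none over 281 bp wide.

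**Figure D2:**
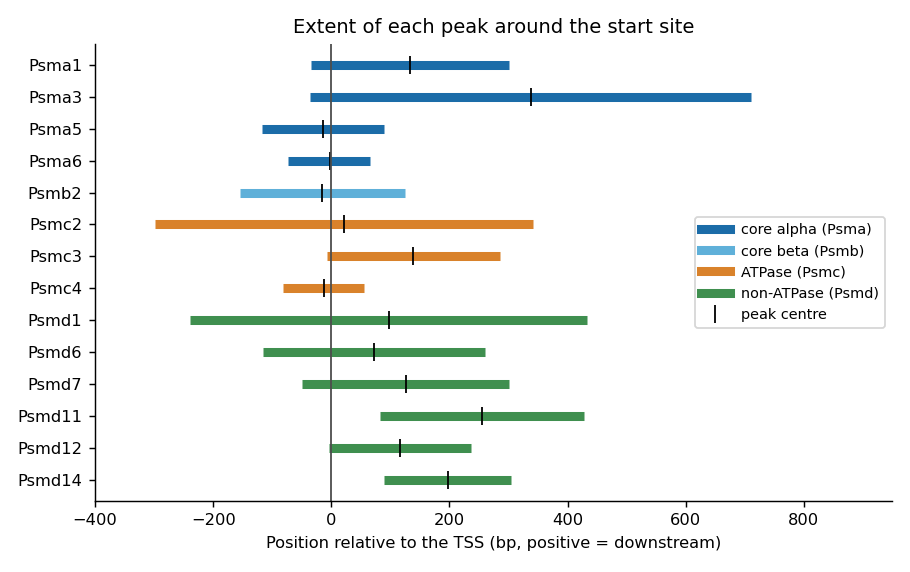
Extent of the 14 peaks at proteasome genes relative to the TSS, in bp along the gene's strand, coloured by class; black ticks mark the centres. The peaks of Psmd11 and Psmd14 begin downstream of the start, and all 6 Psmd centres lie between 72 and 255 bp downstream.

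By annotation class, 7 of the 14 peaks (50%) were in promoters, 4 in introns, 2 in 5' untranslated regions and 1 in an exon. Over all genes with a peak, 66.7% were in promoters and 15.3% in introns. The 4 intron peaks, at Psma1, Psma3, Psmd11 and Psmd14, were also those labelled CpG in the detailed annotation (28.6%), a label that 9.26% of all genes with a peak carried. Each was in intron 1 and centred between 133 and 338 bp downstream of the start. No promoter, exon or untranslated region peak of a member carried the CpG label. Its share at the members is thus the intron share (28.6%, against 15.3% in introns over all genes) and not a separate measure of CpG content.

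For most members without a peak, no listed interval lay within 10000 bp of either gene end. The gap from the nearest end of the 17 genes to any listed interval had a median of 18302 bp, and exceeded 10000 bp for 12 of them. The same median was not computed over all genes without a peak. Internal start sites were not measured: by this gap the peaks of Psma3 and Psma6 stood 5305 and 14531 bp away. The widest gap was at Psma4, with 190908 bp, and the narrowest after Psmc5 was at Psmb1, 1503 bp from a peak of 220 bp named for Tbp. Where start sites could be placed, 5 members began within 1000 bp of a protein-coding neighbour on the opposite strand. They were Psmc2 with Dnajc2, and 4 members without an assigned peak: Psma2 with the mitochondrial ribosomal gene Mrpl32 (205 bp apart), Psma7 with Ss18l1 (19 bp), Psmd13 with the deacetylase gene Sirt3 (85 bp) and Psmc5 with Ftsj3. Of the neighbours Dnajc2 and Ftsj3 had an assigned peak, and Mrpl32, Ss18l1 and Sirt3 had none. Starts came from RefSeq promoter entries or, for genes with a peak but no entry, from the authors' distances, so further such pairs may be missing.

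Base composition was computed over the same promoter windows. The median GC content was 59.0% over the 13 windows of members with a peak and 54.8% over the 14 windows of members without. The 13 include the windows of Psmd11 and Psmd14 and the upstream window of Psma6, which no listed peak reached. CpG dinucleotides stood at 0.840 and 0.798 of the number expected from base content. Over all protein-coding promoters the GC medians were 61.3% with a peak and 55.0% without, and the CpG medians 0.818 and 0.467. The members that lacked a peak were thus closer in CpG content to genes with a peak than to other genes without one; the part of CpG content in the members' count was not tested.

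The motifs ACGTG and CCACG were about as frequent at proteasome promoters as over all promoters. ACGTG was found in 5 of 27 member windows (18.5%), against 20.9% of all 21263 windows of 300 bases, and CCACG in 10 (37.0%), against 37.4%. TGACGTG was in 1 member window (3.70%), against 2.17% of all, and TGACGT in 4 (14.8%), against 8.49%. Of the 4 TGACGT matches 1, at Psma5, lay inside a listed peak. The windows end 50 bp after the start, whereas the members' peaks had a median centre 106.5 bp downstream. Much of the sequence under the peaks was therefore not searched. The windows of Psmd11 and Psmd14 and the upstream window of Psma6 held no base of a peak. They are nevertheless counted among the 13 windows of members with a peak. Psmb2, Psmc3 and Psmd7 had no window. Among genes with a peak, ACGTG was in 1 of 13 member windows (7.69%) and in 32.7% of all windows. CCACG was in 38.5% of these member windows and 53.5% of all windows, and TGACGT in 15.4% and 17.7%. The only ACGTG window of a member with a peak is described next. It was that of Psma1, which also held the only TGACGTG, at positions -160 to -154 relative to the start. This element and both ACGTG matches lay upstream of the listed peak, which reaches 34 bp before the TSS. None of the 7 ACGTG matches in member windows lay inside a listed peak. Only the 2 at Psma1 could have done so, since no listed peak reached the windows of Psma4, Psma7, Psmb5 and Psmd13. Of the 16 CCACG matches, some also in windows without a peak, 4 lay inside one. They were at Psma1, Psma3, Psmd1 and, under the peak named for Dnajc2, at Psmc2. The ER stress element, CCAAT and CCACG with 9 bases between them, was in no member window and in 0.141% of all windows.

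The ETS motif was more frequent by count. CCGGAAG was in 11 of 27 member windows (40.7%), against 11.6% of all windows and 23.6% of those at genes with a peak. Psmc2 gave 2 of these windows. By gene the count was 10 of 25 members (40%), against 12.9% of all genes with a window. It was in 6 of 13 windows of members with a peak (46.2%; by gene 5 of 11) and in 5 of 14 of those without (35.7%). Psma6 held 3 matches, of which 2, next to the start, lay under its peak. In all 5 of 13 matches lay under a listed peak, among them that at the upstream start of Psmc2, under the peak named for Dnajc2. CCAAT was in 37.0% of member windows, against 38.2% of all. The antioxidant element, through which NFE2L1 is known to drive proteasome genes, was in 4 member windows (14.8%), against 13.0% of all: at Psmb5, Psmb6, Psmc6 and Psmd12. GCATGCGC was at Psmc5, under the peak named for Ftsj3, and 4 times at Psma2, 7.41% of member windows against 3.52% of all. These shares are descriptions, with no test of any difference.

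**Figure D3:**
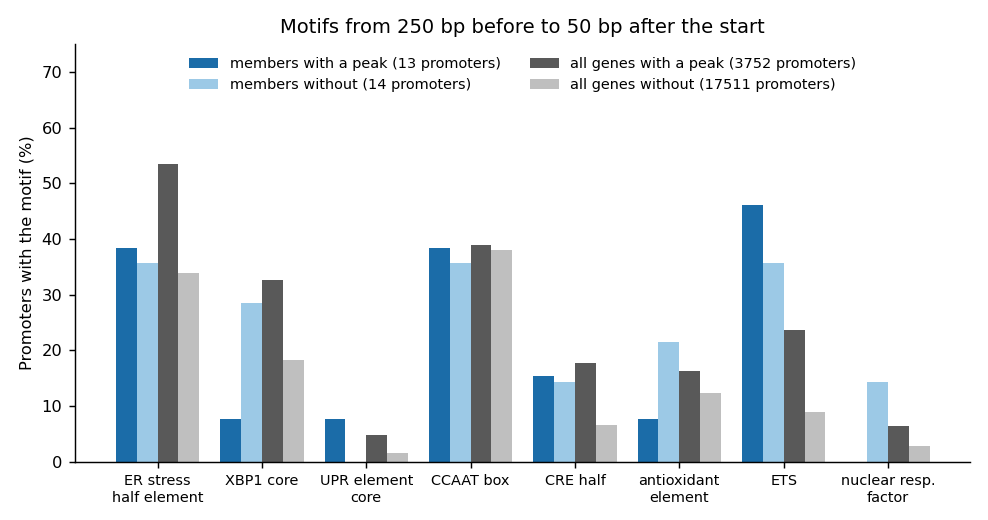
Share of promoter windows (250 bp before to 50 bp after the start) that hold each motif on either strand, for members with a peak, members without, all protein-coding genes with a peak and all without. For the XBP1 core the bar of members with a peak stands at 7.69% and that of all genes with a peak at 32.7%. For the ETS motif they stand at 46.2% and 23.6%. The windows hold only a part of the sequence under the peaks.

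The genes that build, regulate and feed the proteasome were described from a list of 45 chosen by function. Beside the counts in these groups, the share over all protein-coding genes was 15.9%. All 4 genes grouped as further base and lid components had a peak. They were the ubiquitin receptor Adrm1 (308 bp), the small lid subunit Sem1 (328 bp), and the deubiquitinases Usp14 (337 bp) and Uchl5. The listed interval of Uchl5 was only 3 bp long. Of 8 assembly factors 3 had one, Pomp, which matures the core (646 bp), Psmd5 (244 bp) and Psmg4 (213 bp), while Psmg1, Psmg2, Psmg3, Psmd9 and Psmd10 had no assigned peak; one of 824 bp named for Cep76 covered an end of Psmg2. Of 5 activators and inhibitors 3 had one: Psme3 (599 bp), Psme4 (209 bp) and Psme1 (115 bp). The tissue-specific subunits Psma8 of testis and Psmb11 of thymus had none.

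Some of the widest peaks of the pathway lay at genes that act before the proteasome. Of 6 ubiquitin and activating enzyme genes 4 had one, among them Ubb with 1679 bp, Uba6 with 265 bp and Rps27a with 219 bp. Of 6 shuttle factors, which carry ubiquitinated proteins to the proteasome, 5 had one, among them Rad23b (1066 bp), Ubqln4 (736 bp), Ddi2 (554 bp) and Ubqln1 (465 bp). The widths at these shuttle factors each exceeded the median of 410 bp. Of 7 genes of the p97 segregase, which extracts proteins from membranes, and its cofactors 4 had one: Ubxn4 (598 bp), Vcp, which encodes p97 itself (578 bp), Faf2 (454 bp) and Nploc4 (283 bp).

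Among regulators of proteasome genes, Nfe2l1 had a peak of 1037 bp, wider than that at any of the 31 subunits. It encodes an ER-anchored factor that restores proteasome synthesis when the proteasome is inhibited, after extraction by p97 and cleavage by DDI2. Nfe2l2 had 254 bp, and Nfe2l3 and Ngly1 had no assigned peak; a peak of 876 bp named for Oxsm covered an end of Ngly1.

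Other gene sets of related function or constitutive expression give the proteasome values a scale. Of 20 genes of ER-associated degradation, which delivers ER proteins to the proteasome, 15 had a peak (75%), with a median width of 1028 bp, and 8 of these peaks were 1000 bp or wider. Of 77 cytosolic ribosomal protein genes 43 had one (55.8%), with a median of 476 bp, and 4 reached 1000 bp. The proteasome members, at 45.2% and 315 bp, were below both in share and in width, and no such difference was tested.

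**Figure D4:**
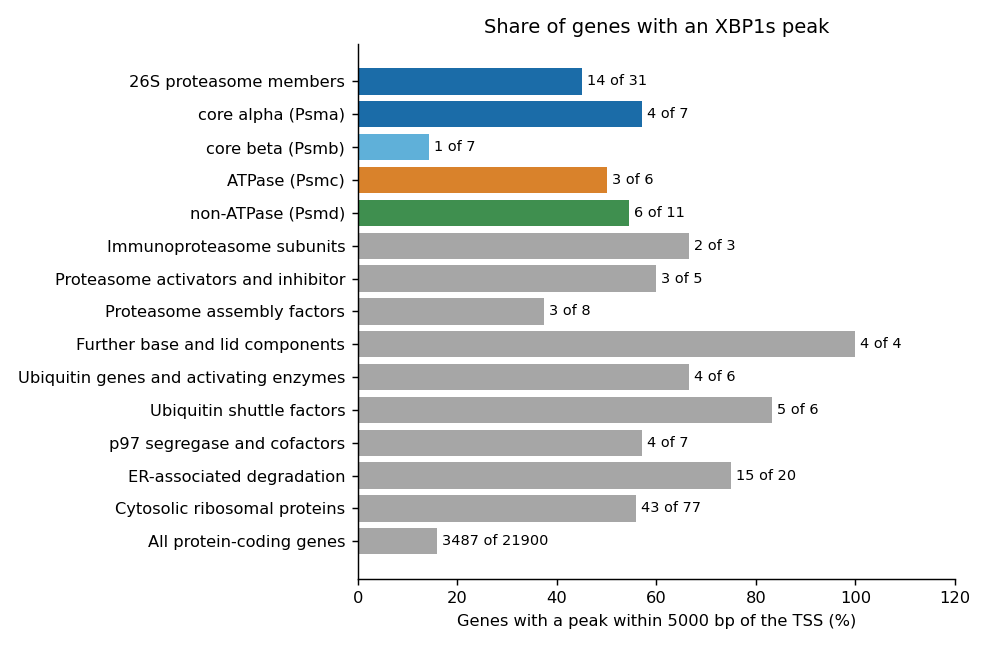
Share of genes with an XBP1s peak within 5000 bp of the TSS, in percent, for the 31 constitutive proteasome genes, their 4 classes, 9 related gene lists and all protein-coding genes; the numbers beside the bars are genes with a peak of genes in the list. The beta subunits (1 of 7) and all protein-coding genes (15.9%) have the shortest of the bars drawn; the tissue-specific subunits (0 of 2), the regulators of proteasome genes (2 of 4) and the marker lists are not drawn.

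**Figure D5:**
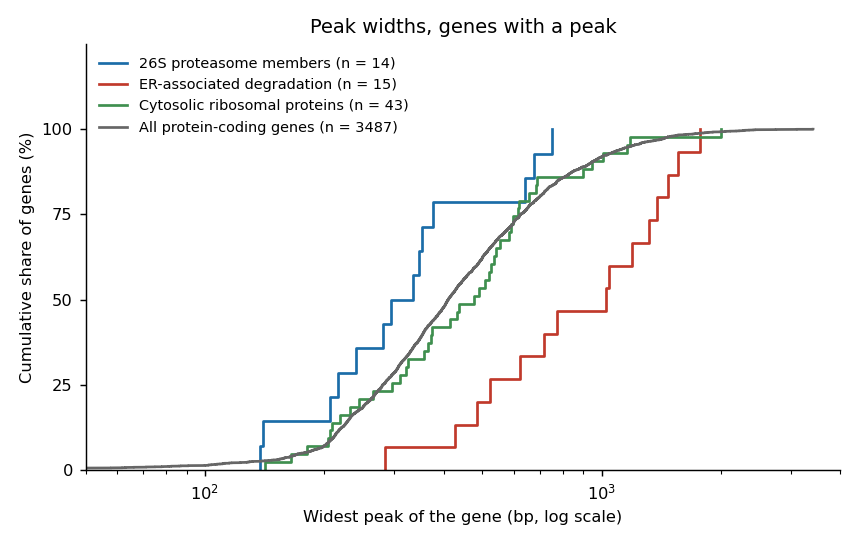
Cumulative share of genes, in percent, by the width of the widest peak on a log scale, for genes with a peak in 4 sets. The proteasome curve ends at 748 bp and lies to the left of the curve of all protein-coding genes over most of its range; the curve of ER-associated degradation lies to the right, with a median of 1028 bp.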

How the data were processed

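XBP1s ChIP-seq of mouse NK cells was deposited as 1 peak table. Per the file headers, the authors made it with the HOMER annotator on mm10 from intervals named common. Tools in the submitters' processing notes are MACS2 2.2.7.1 and HOMER 4.11 and 4.11.1, with Bowtie2 2.4.5, FastQC 0.11.9 and Trim Galore 0.6.7; how calls were combined is not stated there. The deposited score is 0 for all 4890 peaks and was not used. Distances to the TSS and gene names are the authors', and positions are 1-based. Depth per library is unknown.

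Width was end minus start plus 1, and the widest peak stood for a gene. Genes were matched by Entrez number to RefSeq (GRCm38.p6); all 31 members and 92 other listed symbols matched. Counting and motif search were tested on made-up data with known answers. Members, lists and motifs were chosen with earlier results of these data known, so no list was tested. Some listed genes are counted but not reported here by name. By rule all members are named, with coordinates for the 3 widest peaks per class, and promoters are printed for the widest peak of each class and for 1 member without a peak; Psmb2 had no promoter entry, and 3 promoters were added after their values were seen. Alternatives varied the distance, the width and the assignment of peaks. Versions were matplotlib 3.10.9, NumPy 2.4.6, pandas 2.3.3, Python 3.11.15 and SciPy 1.17.1.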

Additional observations from a re-analysis of the deposited data

How the results depend on the processing

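The count of 14 members was 14 within 1000 bp (45.2%, against 15.1% of all protein-coding genes) and 15 at any distance (48.4%, against 17.8%). It was 12 with peaks of at least 200 bp (38.7%, against 14.8%) and 13 by either gene end (41.9%, against 17.5%). Counting only the widest 50% of peaks left 4 of 31 members, against 9.03% of all protein-coding genes, with 1 in the core, 1 ATPase and 2 non-ATPase genes. By either gene end the core count was 3 in place of 5, because the peaks of Psma3 and Psma6 lie at internal start sites. With peaks of at least 200 bp, the median width was 340.5 bp in place of 315 bp and the median centre 121 bp downstream in place of 106.5 bp, since Psma6 and Psmc4 were left out by construction. The shares of the 9 motifs in member promoters stayed within the 95% Clopper-Pearson intervals of the main values when the 250 bases before the start were used alone. Those bases are part of the main windows, and the intervals are wide, as for CCACG (19.4% to 57.6%). This is therefore a weak check. No paired analysis was possible because the deposited table holds no values per library, and for the same reason no result could be recomputed without a replicate. Narrow intervals limit what can be said: an interval may be the overlap of several calls.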
